A study of Homo sapiens with 6 samples.

Results

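Chromatin remodelers and histone modifiers were taken as the protein-coding genes whose symbols belong to the KDM, KMT2, KMT5, ARID, SMARC, CHD, SETD, HDAC, SIRT, KAT, EZH, DNMT and TET families, that do not lie on the Y chromosome, and that had a mean of at least 10 reads over all 6 libraries. This gave 101 genes of the 28491 in the count table, of which 16530 are protein-coding. Of 103 genes with such symbols, 2 fell below the limit. ARID3C, just inside it, had a mean of 15.2 reads, while CHD1L and DNMT3L, just outside it, had means of 7.83 and 0.167 reads. All 101 genes passed edgeR's filter on low counts and were tested among 16260 genes. The cells were HCT116, a human colorectal carcinoma line, transiently transfected with a control plasmid (NC, 3 libraries) or with a plasmid carrying the RBM47 coding transcript (RBM47-OE, 3 libraries), and poly(A) RNA was sequenced from cells taken 48 h later. The labels name pcDNA3.1-3xFlag-RBM47, DMEM and a NEBNext directional kit, and the methods name pIRES-hrGFP-1a, a KC stranded kit and McCoy's 5A medium. Both groups were transfected, the comparison is within 1 cell line, and all cells of a culture, transfected or not, were sequenced together. No source used here says that the 3 libraries of a group came from separate cultures, so p-values measure the spread between these libraries, which may be technical.

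DNA in the nucleus is wound on histones, and most genes described here encode the machinery that moves, marks and unmarks these nucleosomes. The symbols also take in proteins that act elsewhere, such as the mitochondrial sirtuin SIRT4 and the actin histidine methyltransferase SETD3. Remodelers of the SWI/SNF, ISWI and CHD families use ATP to slide or evict nucleosomes. Methyltransferases and acetyltransferases write marks on histone tails, demethylases and deacetylases erase them, and DNMT and TET enzymes write and oxidise methylated cytosine. Many of these proteins work as subunits of shared complexes in which paralogs replace each other, and genes of several of these families are recurrently altered in colorectal cancer.

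RBM47, an RNA-binding protein, rose by 5.90 on the log2 scale (adjusted p = 1.7e-25, edgeR's quasi-likelihood test), and did not overlap between the groups. The libraries held between 26792409 and 35477983 reads on genes, of which 0.602% to 0.653% fell on the chromatin genes. Of 10 colorectal epithelial markers, 9 were at a mean FPKM of 1 or more, with summed FPKM of 2022 to 2202 in NC and 1872 to 2122 in RBM47-OE. After adjustment 1 was higher and 3 lower, and 1 and 0 in a fit that takes out the GC trend of each library. VIL1, a brush border marker, was at 0.0633 FPKM in NC and 0.0433 in RBM47-OE. Leukocyte markers summed to 0.53 to 0.79 FPKM in NC and 0.36 to 0.42 in RBM47-OE, with 0 of 6 at a mean of 1 FPKM or more. Only CD68 had enough reads to be tested. It was lower (adjusted p = 0.033 in edgeR) but did not pass with the GC trend taken out (adjusted p = 0.11). Fibroblast markers summed to 1.51 to 1.77 and 1.34 to 1.78 FPKM with 1 of 6 at that level, endothelial markers to 0.15 to 0.20 and 0.11 to 0.18 with 0 of 4, and no gene of either list was called. Of 20 proliferation genes 4 were higher and 9 lower (19.1% and 16.9% of all genes). In the fit with the GC trend taken out, 1 was higher and 8 lower (5.97% and 8.57% of all genes). Their summed FPKM was 866.8 to 905.5 in NC and 816.4 to 863.3 in RBM47-OE. Across all tested genes, levels in the RBM47-OE libraries leaned away from GC-rich exons, with Spearman's rho between GC content and difference from NC at -0.41, -0.59 and -0.67 for replicates 1 to 3.

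Chromatin genes differed modestly between the groups, in both directions. At an adjusted p-value under 0.05 (edgeR's quasi-likelihood test, Benjamini-Hochberg over all 16260 genes), 25 of the 101 genes were higher in RBM47-OE and 15 were lower, and 61 did not pass. The same test called 19.1% of all genes higher and 16.9% lower, so the share of chromatin genes called, either way, was near that of the transcriptome. The median log2 fold change of the 101 genes was -0.01, beside a median of 0.00 over all tested genes. The values ran from -0.40 for ARID5A to 0.57 for SMARCA1. Of the called genes, 10 of the 25 higher and 9 of the 15 lower moved by less than 1.25-fold. None of the 101 genes met the thresholds of the study, an unadjusted p-value under 0.01 with a fold change over 1.5, which 1.51% of all genes met as higher and 0.873% as lower in edgeR. DESeq2 gave the same count of 0, while 59 chromatin genes had an unadjusted p-value under 0.05 in edgeR and 58 in DESeq2, beside 44.4% and 42.2% of all genes. In counts scaled to library size, RBM47-OE lay above NC without overlap for 28 chromatin genes and below it for 31, beside 23.2% and 23.4% of all genes. When each of the 6 libraries was left out in turn, 18 of the 40 calls held in every fit, 12 higher and 6 lower. The share of calls over all genes that held in this way is not given here. The other chromatin genes are named with the libraries or the number of fits that lost them.

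**Figure D1:**
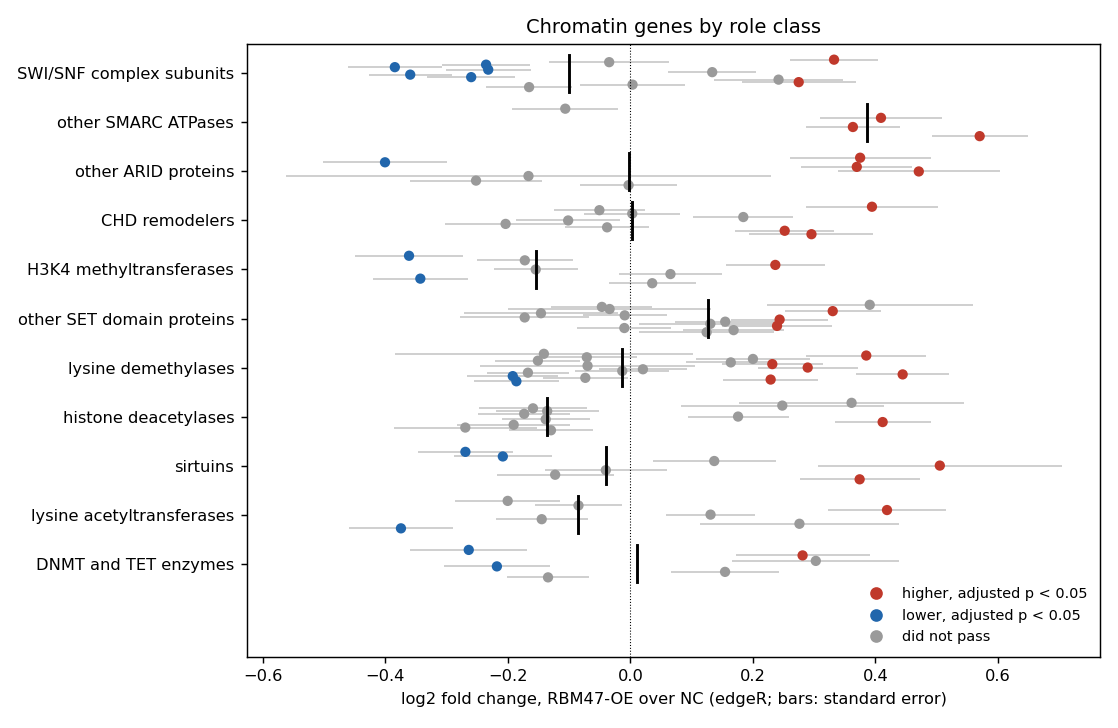
Log2 fold change of each of the 101 chromatin genes (x axis, RBM47-OE over NC, edgeR) in 11 role classes (rows), with bars for the standard error, colour for the call at an adjusted p-value under 0.05 and a black tick for the class median. The 25 higher genes lie between 0.23 and 0.57, the 15 lower genes between -0.40 and -0.19, and both colours occur in 7 of the 11 classes.

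The direction of change went with the base composition of the transcripts. Exons of the 25 higher genes had a median GC content of 41.8% and those of the 15 lower genes 56.7%. Among the 33 chromatin genes with the lowest exonic GC content (36.4% to 42.9%), 19 were higher and 1 was lower. In the middle 34 genes, 6 were higher and 4 lower. In the 34 genes with the highest GC content (54.0% to 64.8%), 0 were higher and 10 were lower. Spearman's rho between exonic GC content and log2 fold change was -0.76 over the 101 genes, and -0.53, -0.74 and -0.81 for the single RBM47-OE libraries 1, 2 and 3. These genes share the libraries and are not independent replicates, and the trend ran through all genes of the table, so its part in the single results was not tested. A second fit took each library's GC trend out as an offset (the GC offset), so that any change tied to GC content is removed with it, technical or not. With it, 9 chromatin genes were higher and 7 lower, beside 5.97% and 8.57% of all genes, and rho was 0.02. The sign of the log2 fold change differed from that without the offset in 33 of the 101 genes, 3 of them called without it (CHD1, ARID2 and SIRT6). Of the 25 higher genes 4, and of the 15 lower genes 4, were called in both fits. The matching share over all genes is not given here. Another fit, chosen after seeing the data, used the GC content of each gene's canonical transcript in place of all annotated exons. It called 10 chromatin genes higher and 3 lower, beside 5.40% and 8.17% of all genes.

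**Figure D2:**
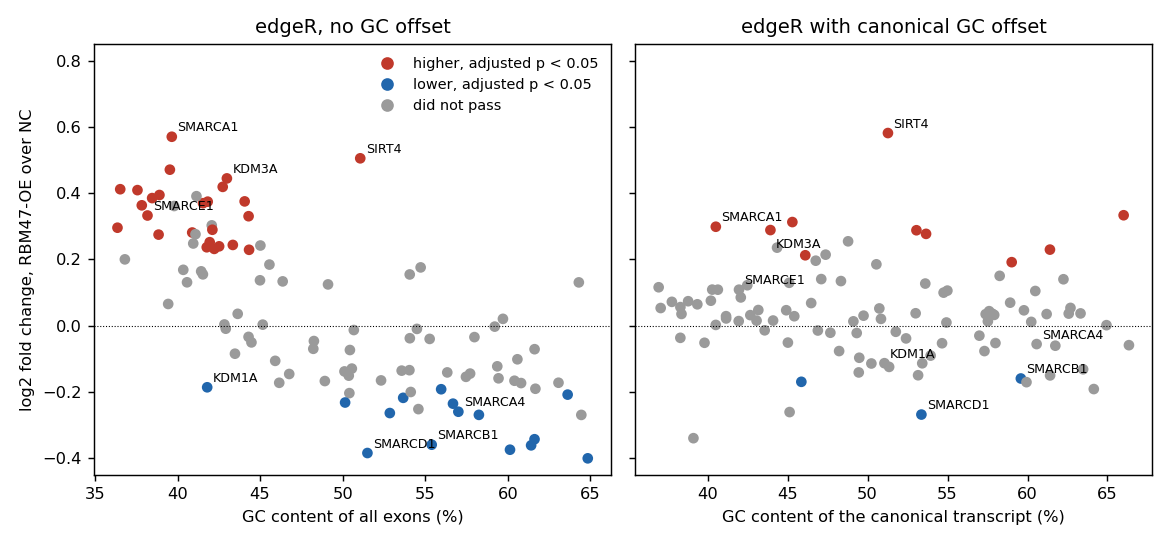
Log2 fold change of the 101 chromatin genes against GC content in percent, with exonic GC content in the fit without an offset (left) and GC content of the canonical transcript in the fit with the canonical GC offset (right). On the left higher genes crowd below 45% GC and lower genes above 50%, with KDM1A and SIRT4 away from the trend, and on the right the 10 higher and 3 lower genes are spread over the range.

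In all 3 fits 5 chromatin genes were called, and they were named after their values were seen. The share of all genes called alike in the 3 fits is not given here. SMARCA1, KDM3A and SIRT4 were higher, and SMARCB1 and SMARCD1 were lower. SMARCA1 (ENSG00000102038, chrX:129446501-129523500, minus strand) encodes SNF2L, an ISWI-family ATPase that spaces nucleosomes. Its FPKM, fragments scaled by transcript length and by the mapped fragments of the library, was 9.06, 9.15 and 9.81 in the NC replicates against 12.9, 15.5 and 15.4 in the RBM47-OE replicates. Each RBM47-OE value thus exceeded each NC value, with means of 9.34 ± 0.410 in NC and 14.6 ± 1.50 in RBM47-OE (SD, n = 3). SMARCA1 had the largest log2 fold change of the 101 genes (0.57, standard error 0.0782, adjusted p = 2.7e-05 in edgeR), and the value was 0.28 with the GC offset (adjusted p = 0.0029) and 0.30 with the canonical GC offset. Over 18 other settings of the test its adjusted p-value ran from 9.5e-10 to 0.0079.

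KDM3A (ENSG00000115548, chr2:86440647-86492716, plus strand) encodes a demethylase of mono- and dimethylated histone H3 lysine 9 that is also known as a hypoxia-induced gene. Its FPKM was 7.91, 7.11 and 7.99 in the NC replicates against 9.73, 11.4 and 11.8 in the RBM47-OE replicates, again without overlap between the groups. KDM3A rose by 0.44 in log2 terms (standard error 0.0762, adjusted p = 0.00014 in edgeR), by 0.26 with the GC offset and by 0.29 with the canonical GC offset, and its adjusted p-value ran from 2e-07 to 0.0097 over the same 18 settings. SIRT4 (ENSG00000089163, chr12:120302316-120313249, plus strand), a mitochondrial sirtuin, was the least stable of the group. It was measured at 1.55, 1.70 and 1.45 FPKM in NC against 2.74, 2.03 and 2.22 in RBM47-OE. Replicate 1 was the highest RBM47-OE library for SIRT4, unlike for SMARCA1 and KDM3A, where it was the lowest. SIRT4 changed by 0.51 in log2 terms (standard error 0.199, adjusted p = 0.0487 in edgeR) and 0.59 with the GC offset, but the call held only in the fit without RBM47-OE replicate 2 of the 6 that each left out a library, with adjusted p-values up to 0.18 in the others. Its exonic GC content of 51.1% set it apart from the other higher genes.

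SMARCB1 (ENSG00000099956, chr22:23786931-23838009, plus strand) and SMARCD1 (ENSG00000066117, chr12:50085200-50100707, plus strand) encode a core subunit and an accessory subunit of SWI/SNF. SMARCB1, a tumor suppressor lost in rhabdoid tumors, was at FPKM values of 6.54, 6.68 and 6.68 in the NC replicates against 5.47, 5.52 and 5.32 in the RBM47-OE replicates. The groups did not overlap and the libraries within each were close together, with means of 6.63 ± 0.0808 in NC and 5.44 ± 0.104 in RBM47-OE (SD, n = 3). SMARCB1 fell by 0.36 in log2 terms in edgeR (standard error 0.0680, adjusted p = 0.00032), beside values of -0.20 with the GC offset and -0.16 with the canonical GC offset. The canonical exons of SMARCB1 are covered to 56.3% by exons of genes on the opposite strand, and the sources used here do not say whether strand was used in counting, so reads of both strands may be mixed in this value. SMARCD1 was at 10.4, 10.8 and 10.8 FPKM in NC against 9.12, 8.66 and 7.99 in RBM47-OE, also without overlap. SMARCD1 fell by 0.38 (standard error 0.0767, adjusted p = 0.00051 in edgeR), and the log2 fold change was -0.28 and -0.27 with the 2 offsets. Leaving out any single library kept the calls of SMARCA1, KDM3A, SMARCB1 and SMARCD1 in the fit without an offset. With the GC offset and a library left out, SMARCA1 and SMARCD1 kept their calls in 6 of 6 fits, KDM3A in 5, SMARCB1 in 3 and SIRT4 in 1 (adjusted p up to 0.15 in edgeR).

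**Figure D3:**
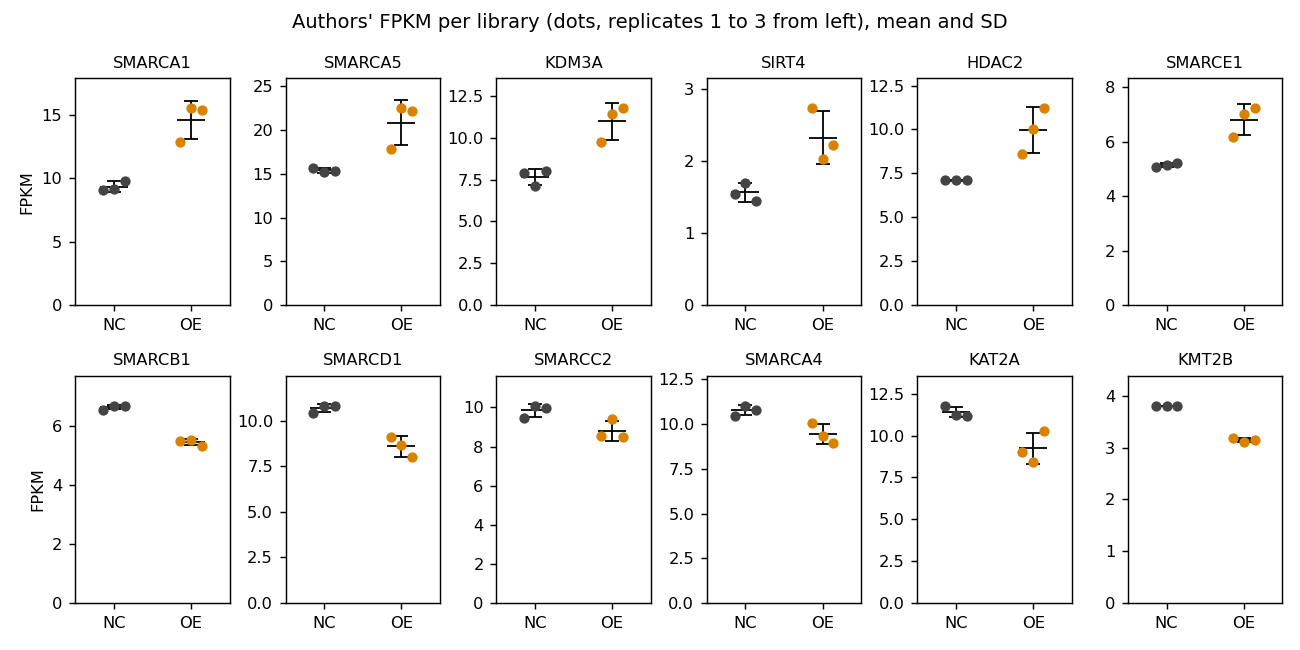
FPKM as deposited by the authors (y axis, from 0) for 12 chromatin genes in the NC and RBM47-OE (OE) libraries, with 1 dot per library and the mean with its SD in black. In each of the 12 panels the groups do not overlap, with RBM47-OE above NC in the upper row and below NC in the lower row. The 12 genes were picked from the called genes and do not stand for all 101. In scaled counts 28 of the 101 genes lay above and 31 below without overlap, beside 23.2% and 23.4% of all genes.

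Promoter sequences of the 5 genes are shown because these genes were called alike in all 3 fits. Each line gives the 250 bases upstream of the RefSeq transcription start on GRCh38.p14, 5′ to 3′ on the strand of the gene, in lower case with matches to GGGCGG or its reverse complement, the GC box bound by SP1-family factors, in capitals.
KDM3A, chr2:86441121-86441370, plus strand: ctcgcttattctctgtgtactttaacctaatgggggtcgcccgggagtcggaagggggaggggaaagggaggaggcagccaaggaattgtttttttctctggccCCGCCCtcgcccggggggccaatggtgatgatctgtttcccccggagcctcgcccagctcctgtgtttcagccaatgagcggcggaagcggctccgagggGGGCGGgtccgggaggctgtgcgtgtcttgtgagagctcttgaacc
SMARCA1, chrX:129523491-129523740, minus strand: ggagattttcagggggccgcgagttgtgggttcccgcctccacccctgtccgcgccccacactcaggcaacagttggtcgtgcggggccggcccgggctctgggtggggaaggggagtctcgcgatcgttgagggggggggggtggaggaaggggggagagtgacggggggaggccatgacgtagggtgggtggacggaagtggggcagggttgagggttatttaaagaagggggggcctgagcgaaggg
SIRT4, chr12:120302071-120302320, plus strand: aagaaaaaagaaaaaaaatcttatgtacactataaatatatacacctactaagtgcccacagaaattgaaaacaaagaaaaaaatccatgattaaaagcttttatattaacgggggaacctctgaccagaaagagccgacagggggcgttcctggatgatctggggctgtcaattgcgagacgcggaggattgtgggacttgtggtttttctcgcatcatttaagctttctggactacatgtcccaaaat
SMARCB1, chr22:23786716-23786965, plus strand: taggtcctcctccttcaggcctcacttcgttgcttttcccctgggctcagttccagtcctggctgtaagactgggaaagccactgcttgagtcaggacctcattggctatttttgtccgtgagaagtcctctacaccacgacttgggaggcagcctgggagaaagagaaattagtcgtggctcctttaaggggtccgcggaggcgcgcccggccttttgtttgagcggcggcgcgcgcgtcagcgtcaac
SMARCD1, chr12:50085092-50085341, plus strand: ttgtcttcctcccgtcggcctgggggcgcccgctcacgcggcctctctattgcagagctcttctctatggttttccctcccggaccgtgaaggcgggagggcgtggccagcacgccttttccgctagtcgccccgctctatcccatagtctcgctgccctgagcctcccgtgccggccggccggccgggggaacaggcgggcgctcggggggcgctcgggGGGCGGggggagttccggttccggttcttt

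A GC box was found in KDM3A (2 matches) and SMARCD1 (1 match) and not in this window of the other three, and CCAAT, on either strand, in KDM3A and SMARCB1. The SIRT4 sequence, with a GC content of 39.6% and 2 matches to TATAAA, differed from the other 4, which held 58.0% to 70.4% GC. RefSeq promoters were matched for 88 of the 101 chromatin genes. Each of these genes gave a single promoter, the one nearest to the start of its canonical transcript. The 35116 promoters beside them are all those of the RefSeq table, whether or not the gene was expressed here. The sets thus differ in basis, and differences between them were not tested. Median GC content was 67% for the chromatin genes, beside 58% over all 35116 promoters, and 65.9% held a GC box, beside 42.6%. CCAAT was found in 31.8% of the chromatin gene promoters and 32.0% of all, TATAAA in 2.27% and 10.7%, ACGTG in 21.6% and 18.5%, and CCGGAAG, an ETS-type motif, in 15.9% and 8.52%, all on both strands. The 24 matched promoters of higher genes and the 12 of lower genes held a GC box in 62.5% and 58.3%, and their median GC contents were 63.6% and 65.6%. A match is a run of letters and not a measured binding site.

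Of 12 SWI/SNF subunits, 5 were lower, 2 were higher and 5 did not pass, and the class median was -0.10. SMARCA4 (ENSG00000127616, chr19:10960932-11079426, plus strand), the BRG1 ATPase that drives the complex, was at 10.5, 11 and 10.8 FPKM in NC against 10.1, 9.34 and 8.95 in RBM47-OE. SMARCA4 fell by 0.26 (standard error 0.0717, adjusted p = 0.0062 in edgeR), with groups that did not overlap, but was at -0.08 with the GC offset and no longer passed. The call of SMARCA4 was also lost without NC replicate 2 (adjusted p = 0.053 in edgeR). The scaffold gene SMARCC2 and the accessory gene SMARCD2, named after their values were seen, were also lower, at -0.23 and -0.24. SMARCD2 was the most abundant subunit, at 69.4 ± 1.80 FPKM in NC (SD, n = 3) against 10.7 ± 0.209 for SMARCD1 and 4.16 ± 0.402 for SMARCD3. SMARCC2 still passed with the GC offset (-0.16) and SMARCD2 did not (-0.06). With the canonical GC offset SMARCC2 did not pass (-0.11, adjusted p = 0.19 in edgeR). Its call with the GC offset held in 1 of 6 fits without a library. Without an offset, SMARCC2 lost its call without NC replicate 2 (adjusted p = 0.079) or NC replicate 3 (0.063), and SMARCD2 without NC replicate 1 (0.058), NC replicate 2 (0.089) or RBM47-OE replicate 2 (0.051). The higher genes were SMARCE1 and ARID2, a subunit of the PBAF form, at 0.27, and -0.04 with the GC offset, and ARID2 kept its call only without NC replicate 1 or RBM47-OE replicate 1. SMARCE1 (ENSG00000073584, chr17:40624962-40648654, minus strand), the HMG-box subunit BAF57, was at FPKM values of 5.06, 5.15 and 5.23 in the NC replicates against 6.18, 7.02 and 7.24 in the RBM47-OE replicates. Its log2 fold change of 0.33 (standard error 0.0712, adjusted p = 0.00091 in edgeR) shrank to 0.01 with the GC offset. Of its canonical exonic bases 51.5% are shared with RP5-1028K7.3 on the same strand, which held a mean of 142 reads against 3822 for SMARCE1, so reads may be split between them. ARID1A (ENSG00000117713, chr1:26693236-26782104, plus strand), a subunit often mutated in cancer, was at 5.62 ± 0.0794 in NC and 5.26 ± 0.177 in RBM47-OE FPKM and did not pass (log2 fold change -0.17, standard error 0.0702, adjusted p = 0.068 in edgeR).

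Of the 4 SMARC genes for ATPases outside SWI/SNF, 3 were higher, with a class median of 0.39, on the lowest median exonic GC content of the 11 classes, 38.7%. SMARCA5, the SNF2H motor of most ISWI complexes, rose from 15.4 ± 0.282 to 20.9 ± 2.58 FPKM (SD, n = 3), a log2 fold change of 0.36. SMARCAD1, a remodeler linked to heterochromatin upkeep and DNA repair, rose by 0.41. Of the 3 genes, SMARCA1 kept its call with the GC offset, and SMARCA5 and SMARCAD1 were at 0.03 and 0.07. SMARCAL1, a helicase that anneals DNA at stalled forks, did not pass (-0.11).

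Among the 7 other ARID genes, whose proteins bind AT-rich DNA or partner with other modifiers, 3 were higher and 1 was lower. ARID4B (ENSG00000054267, chr1:235131634-235328219, minus strand), a retinoblastoma-binding subunit of the SIN3 deacetylase complex, was at 2.16, 2.14 and 2.13 FPKM in NC against 2.48, 3.10 and 3.17 in RBM47-OE (log2 fold change 0.37, standard error 0.0905, adjusted p = 0.0026 in edgeR). Its paralog ARID4A rose by 0.47 and ARID5B by 0.37, the latter lost without NC replicate 1 (adjusted p = 0.053 in edgeR), NC replicate 3 (0.11) or RBM47-OE replicate 2 (0.10). ARID5A (ENSG00000196843, chr2:96536743-96552634, plus strand), known for binding and stabilising inflammatory mRNAs, was at 4.21, 4.75 and 4.73 FPKM in NC against 3.83, 3.44 and 3.63 in RBM47-OE. It had the largest fall of the 101 genes (log2 fold change -0.40, standard error 0.102, adjusted p = 0.0034 in edgeR), and its exons, at 64.8% GC, were the richest in GC. With the GC offset ARID4B was at 0.13 and ARID5A at -0.19, and neither passed. ARID3C, the gene at the count limit, was counted at 13, 19 and 15 in the NC and 19, 14 and 11 in the RBM47-OE libraries and did not pass (-0.17, standard error 0.396).

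Of 9 CHD remodelers 3 were higher and 0 lower. CHD9 (ENSG00000177200, chr16:53054991-53329150, plus strand) was at 1.04, 1.02 and 1.02 FPKM in NC against 1.12, 1.69 and 1.43 in RBM47-OE, with replicate 1 nearest to NC (log2 fold change 0.39, standard error 0.107, adjusted p = 0.0057 in edgeR), and did not pass without RBM47-OE replicate 2 (adjusted p = 0.077). CHD1, which acts at transcribed genes, rose by 0.30, with FPKM values that overlapped between the groups, and CHD2 by 0.25. With the GC offset CHD1 was at -0.07. CHD1 kept its call only without NC replicate 1 or RBM47-OE replicate 1, and CHD2 only without RBM47-OE replicate 1 or 3. None of the 9 was called with the GC offset. CHD4 (ENSG00000111642, chr12:6570082-6614524, minus strand), the main ATPase of the NuRD complex, was listed at 1.29, 1.22 and 1.24 FPKM in NC against 1.14, 1.09 and 1.19 in RBM47-OE, with a log2 fold change of -0.20 (standard error 0.0982, adjusted p = 0.11 in edgeR). These values cannot be read as the full level of CHD4, because 90.1% of its canonical exonic bases are shared with RP5-940J5.10, an annotated gene on the same strand that held a mean of 12452 reads against 526 for CHD4. That gene was at 43.3 ± 0.609 in NC and 41.1 ± 0.738 in RBM47-OE FPKM (SD, n = 3), with a log2 fold change of -0.15 and an adjusted p-value of 0.096 in edgeR, so neither annotation passed. CHD1L, excluded by the count limit, shares 91.6% of its exonic bases with RP11-337C18.10, which held a mean of 1600 reads and did not pass (0.03). CHD5, best known from neurons, was at 2.52 ± 0.0306 FPKM in NC and 2.46 ± 0.171 in RBM47-OE (SD, n = 3).

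Of the 7 genes classed with the H3K4 methyltransferases, 1 was higher and 2 were lower. All but KMT2E, the higher gene, encode catalytic subunits of COMPASS complexes. KMT2B (ENSG00000272333, chr19:35717973-35738880, plus strand) was at 3.80, 3.80 and 3.81 FPKM in NC against 3.18, 3.11 and 3.15 in RBM47-OE without overlap. KMT2B fell by 0.34 (standard error 0.0775, adjusted p = 0.0014 in edgeR), and SETD1B fell by 0.36. Both have exons above 61% GC, and with the GC offset they were at -0.13 and -0.15 and did not pass. KMT2E (ENSG00000005483, chr7:104940943-105115019, plus strand), whose SET domain has little known activity, rose from 3.52 ± 0.0379 to 4.37 ± 0.475 FPKM (SD, n = 3), a log2 fold change of 0.24 with an adjusted p-value of 0.023 in edgeR, and kept its call only without RBM47-OE replicate 1 or 3. KMT2D (ENSG00000167548, chr12:49018975-49060794, minus strand), an enhancer monomethyltransferase, was at 5.13 ± 0.0987 and 4.84 ± 0.187 FPKM (SD, n = 3) and did not pass (-0.15, standard error 0.0685), and its sign turned to 0.03 with the GC offset. KMT2A, at 0.04, shares 22% of its canonical exonic bases with RP11-770J1.8 on the same strand.

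The 14 other SET domain genes held 3 higher and 0 lower. SETD7 (ENSG00000145391, chr4:139495941-139606699, minus strand), a monomethyltransferase of H3K4 and of many other proteins, was at 6.38, 6.04 and 6.32 FPKM in NC against 7.01, 8.90 and 8.89 in RBM47-OE (log2 fold change 0.33, standard error 0.0783, adjusted p = 0.002 in edgeR). SETD7 passed with the GC offset (0.19) and did not pass with the canonical GC offset (0.12), and with the GC offset it kept its call in 1 of 6 fits without a library. SETD3, an actin histidine methyltransferase, rose by 0.24 and KMT5B, which writes dimethylated H4K20, by 0.24. SETD3 was lost without NC replicate 2 (adjusted p = 0.080 in edgeR), NC replicate 3 (0.091) or RBM47-OE replicate 3 (0.10), and KMT5B passed only without RBM47-OE replicate 1. EZH2 (ENSG00000106462, chr7:148807257-148884321, minus strand), the catalytic subunit of Polycomb repressive complex 2 and writer of H3K27 methylation, was at 4.17, 4.09 and 4.35 FPKM in NC against 4.23, 5.32 and 5.37 in RBM47-OE. RBM47-OE replicate 1 lay among the NC libraries of EZH2 and replicates 2 and 3 above them, and the gene did not pass (0.17, standard error 0.0820), with a value of -0.11 with the GC offset. EZH1 (0.12), SETD2, the writer of H3K36 trimethylation (0.15), and SETDB1, an H3K9 methyltransferase (-0.05), did not pass.

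Lysine acetyltransferases had 1 higher and 1 lower gene of 7. KAT2A (ENSG00000108773, chr17:42113111-42121367, minus strand), the GCN5 subunit of SAGA, was at FPKM values of 11.8, 11.2 and 11.2 in the NC replicates against 9.02, 8.43 and 10.3 in the RBM47-OE replicates, without overlap. KAT2A fell by 0.37 in log2 terms (standard error 0.0844, adjusted p = 0.0014 in edgeR) and stood at -0.17 with the GC offset, where it did not pass. KAT6B (ENSG00000156650, chr10:74824927-75032624, plus strand), a MOZ-family acetyltransferase, was at 0.620, 0.610 and 0.610 FPKM in NC against 0.770, 1.03 and 0.780 in RBM47-OE (log2 fold change 0.42, standard error 0.0969, adjusted p = 0.0017 in edgeR). KAT6B was at 0.22 with the GC offset, short of the threshold, and at 0.31 with the canonical GC offset, where it passed. KAT5, KAT6A and KAT8 did not pass in any of the 3 fits, and 54.8% of the canonical exonic bases of KAT5 lie opposite exons on the other strand.

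Lysine demethylases were the largest class, with 5 higher and 2 lower of 17. Besides KDM3A, the higher genes were KDM7A at 0.38, KDM4C at 0.29, KDM5A at 0.23 and KDM1B at 0.23. These act on H3K9 and H3K27, H3K9 and H3K36 trimethylation, H3K4 trimethylation, and H3K4 mono- and dimethylation. None of these 4 passed with the GC offset, and KDM4C passed with the canonical one (0.21). With a library left out, KDM4C was lost without NC replicate 2 (adjusted p = 0.071 in edgeR), and KDM5A and KDM1B passed only without RBM47-OE replicate 1. KDM1A (ENSG00000004487, chr1:23019443-23083689, plus strand), the LSD1 demethylase of H3K4 in the CoREST complex, was at FPKM values of 37.9, 39.2 and 38 in the NC replicates against 35.5, 34.3 and 36.4 in the RBM47-OE replicates. The groups did not overlap, and KDM1A fell by 0.19 (standard error 0.0691, adjusted p = 0.037 in edgeR). KDM1A was the only lower gene among the 33 with the lowest exonic GC content, and its value depended on how GC content was counted. All annotated exons of KDM1A hold 41.8% GC and its canonical transcript 51.1%. With the exonic GC offset the log2 fold change was -0.41 (adjusted p = 0.00021 in edgeR) and with the canonical one -0.11 (adjusted p = 0.2), and adjusted p-values ran from 5.4e-07 to 0.17 over the same 18 settings. KDM2B, which brings a Polycomb complex to unmethylated CpG islands, was also lower (-0.19). Both lower demethylases passed only without RBM47-OE replicate 1 or 3 when a library was left out, with adjusted p-values up to 0.17 for KDM1A and 0.19 for KDM2B. KDM6A and KDM6B, the erasers of H3K27 trimethylation, did not pass (0.20 and -0.07).

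Of 11 histone deacetylases 1 was called. HDAC2 (ENSG00000196591, chr6:113933028-114011308, minus strand), a catalytic subunit of NuRD, SIN3 and CoREST, was at FPKM values of 7.10, 7.11 and 7.15 in the NC replicates against 8.63, 10.0 and 11.2 in the RBM47-OE replicates. The NC values lay close together, below each RBM47-OE value, and HDAC2 rose by 0.41 (standard error 0.0783, adjusted p = 0.00033 in edgeR). With a GC content of 36.5% in its exons, the second lowest of the 101 genes, its log2 fold change was 0.05 with the GC offset. HDAC1 (ENSG00000116478, chr1:32292083-32333635, plus strand), its paralog, had the highest level of all 101 genes, a mean of 73.0 FPKM. It was at 74.8, 75.3 and 73.2 FPKM in NC against 72.0, 70.6 and 71.8 in RBM47-OE, which did not overlap, but the difference did not pass (log2 fold change -0.13, standard error 0.0686, adjusted p = 0.15 in edgeR). HDAC3, the deacetylase of the NCoR complex, was at 20.4 ± 1.19 and 19.5 ± 0.442 FPKM (SD, n = 3) and did not pass. HDAC8 and HDAC9 had the lowest means of the 101 genes, 0.162 and 0.183 FPKM, and HDAC8 and HDAC10 share 68.0% and 86.1% of their canonical exonic bases with another gene of the same strand, so their values are uncertain. In reads HDAC8 was not the lowest, with a mean of 127 against 15.2 for ARID3C. The annotated exons of HDAC8 span 22888 bases and its canonical transcript 1754, so its FPKM depends on the gene length used.

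Of 7 sirtuins, which are NAD-dependent deacylases, 2 were higher and 2 lower. SIRT1 (ENSG00000096717, chr10:67884656-67918390, plus strand), the nuclear deacetylase of histones and p53, was at FPKM values of 3.99, 3.64 and 4.21 in the NC replicates against 4.75, 6.19 and 5.21 in the RBM47-OE replicates, without overlap (log2 fold change 0.37, standard error 0.0980, adjusted p = 0.0043 in edgeR). SIRT7 (ENSG00000187531, chr17:81911939-81921323, minus strand), a deacetylase of H3K18, was at 8.08, 8.84 and 8.92 FPKM in NC against 7.91, 7.65 and 6.96 in RBM47-OE (log2 fold change -0.27, standard error 0.0774, adjusted p = 0.0083 in edgeR), and SIRT6 was lower at -0.21. The call of SIRT7 was lost without NC replicate 2 (adjusted p = 0.059 in edgeR) or NC replicate 3 (0.061), and SIRT6 passed only without RBM47-OE replicate 1. SIRT1, SIRT6 and SIRT7 were at 0.15, 0.01 and -0.08 with the GC offset, and none passed.

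The enzymes of DNA methylation held 1 higher and 2 lower of 6. DNMT3B (ENSG00000088305, chr20:32762385-32809359, plus strand), a de novo methyltransferase, was at 5.77, 5.48 and 5.30 FPKM in NC against 4.74, 5.29 and 4.93 in RBM47-OE and passed narrowly (log2 fold change -0.22, standard error 0.0861, adjusted p = 0.0498 in edgeR), and it was at -0.08 with the GC offset. With any 1 of the 6 libraries left out DNMT3B did not pass (adjusted p = 0.059 to 0.21 in edgeR). DNMT1 (ENSG00000130816, chr19:10133342-10231286, minus strand), the maintenance methyltransferase, was the most abundant, at 16.9 ± 0.372 FPKM in NC and 16.2 ± 0.305 in RBM47-OE (SD, n = 3), and did not pass (-0.13, standard error 0.0676). Of the TET dioxygenases, TET2 (ENSG00000168769, chr4:105145875-105279816, plus strand) was at 0.640, 0.670 and 0.760 FPKM in NC against 0.760, 0.940 and 0.950 in RBM47-OE, and the highest NC and the lowest RBM47-OE library were level. TET2 rose by 0.28 (adjusted p = 0.0461 in edgeR), whereas TET3 (ENSG00000187605, chr2:73984910-74108176, plus strand), at 1.92, 1.96 and 2.17 and 1.70, 1.6 and 1.99 FPKM, fell by 0.26 (adjusted p = 0.032). Neither passed with the GC offset, where they were at 0.02 and -0.14. With a library left out, TET2 passed only without NC replicate 3 or RBM47-OE replicate 1, and TET3 only without RBM47-OE replicate 1 or 3.

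The GC offset also brought up 8 genes that had not passed without it, named after their values were seen. The share of all genes that it brought up is not given here. DNMT3A (0.30), HDAC4 (0.33), KDM4B (0.22), ARID3A (0.19) and KMT5C (0.34) were higher, and KMT2C (-0.23), KAT7 (-0.25) and SETD5 (-0.20) were lower. The 5 higher genes were also called with the canonical GC offset, and of the lower ones only KAT7, the HBO1 acetyltransferase (-0.17). DNMT3A, the de novo methyltransferase paralogous to DNMT3B, was at FPKM values of 1.49, 1.48 and 1.52 in the NC replicates against 1.68, 1.89 and 1.69 in the RBM47-OE replicates, without overlap. HDAC4, a class IIa deacetylase, was at 2.21, 2.38 and 2.48 FPKM in NC against 2.58, 3.07 and 2.76 in RBM47-OE, also without overlap, and kept its GC-offset call in 6 of 6 fits without a library, DNMT3A and KAT7 in 5, KDM4B in 4, KMT5C and KMT2C in 3, and ARID3A and SETD5 in 2.

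The balance between paralogs was measured as the log2 ratio of scaled counts (CPM) in each library, for 22 pairs that can replace each other or share a reaction. In 16 of 22 pairs the 3 RBM47-OE ratios lay entirely above or below the 3 NC ratios, which gives a two-sided exact permutation p of 0.10, the smallest that 3 libraries against 3 allow, so no pair can pass 0.05. With the GC offset this held for 15 pairs. The share of other gene pairs that lie apart is not given here, so neither count can be read as particular to paralogs. Among single genes, 23.2% of all tested genes lay apart with RBM47-OE above and 23.4% with it below. The difference was widest between KAT2A and KAT2B, -0.65, and between KDM3A and KDM3B, 0.61. With the GC offset KAT2A against KAT2B was at -0.20, and its groups were no longer fully apart (exact permutation p = 0.5). Per length, KDM3A was at 0.527, 0.477 and 0.524 of the FPKM of KDM3B in NC, rising to 0.695, 0.795 and 0.849 under RBM47-OE, and the shift was 0.39 with the GC offset. In FPKM, HDAC1 exceeded HDAC2 by 10.5, 10.6 and 10.2 times in NC and by 8.34, 7.05 and 6.40 times in RBM47-OE. The log2 CPM ratio of this pair shifted by -0.53, which shrank to -0.10 with the GC offset. The FPKM of SMARCA4 exceeded that of its alternative ATPase SMARCA2 by 14.3 ± 2.0 times in NC and 10.0 ± 0.905 times in RBM47-OE (SD, n = 3). Their log2 CPM ratio shifted by -0.51 without and -0.23 with the GC offset.

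The exons of 6 pairs differed by under 3 percentage points in GC content, and the GC offset moved the shifts of these by at most 0.092. This match depends on how GC content is counted, since the canonical transcripts of KDM1A and KDM1B differ by 7.88 percentage points, and their log2 fold changes differed by -0.41 without an offset, by -0.50 with the GC offset and by -0.16 with the canonical one. DNMT3A and DNMT3B were the closest match, with exonic GC contents of 54.1% and 53.7%. The FPKM of DNMT3A was 0.258, 0.270 and 0.287 of that of DNMT3B in NC against 0.354, 0.357 and 0.343 in RBM47-OE, a log2 shift of 0.37, and 0.38 with the GC offset. Without and with the offset, KDM1A against KDM1B shifted by -0.41 and -0.51, KAT6A against KAT6B by -0.28 and -0.35, and SMARCA5 against SMARCA1 by -0.21 and -0.25. SETD1A against SETD1B shifted by 0.18 and 0.19, and CHD8 against CHD7 by -0.05 and -0.08. In the other 16 pairs the offset moved the shift by 0.054 to 0.56. KMT2A against KMT2B went from 0.38 to 0.01, TET2 against TET3 from 0.55 to 0.16, HDAC4 against HDAC5 from 0.35 to 0.29, and SMARCC1 against SMARCC2 from 0.36 to 0.24. In 5 pairs the offset turned the direction, and these were ARID1A against ARID1B, KMT2C against KMT2D, EZH2 against EZH1, KMT5B against KMT5C and KDM6A against KDM6B. For KDM6A and KDM6B, whose exons differ most in GC content (36.8% and 61.6%), the shift went from 0.27 to -0.29.

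**Figure D4:**
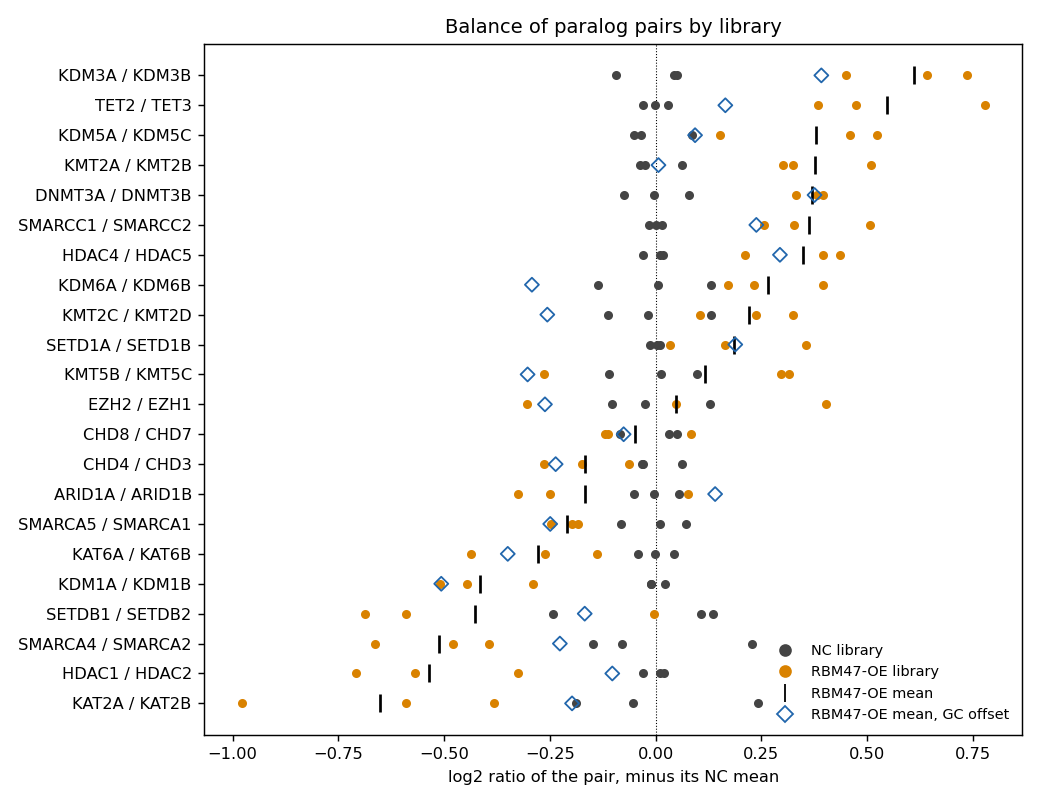
Log2 CPM ratio within 22 paralog pairs in each library, with the NC mean of the pair set to 0 (x axis), as dots for NC and RBM47-OE libraries, a tick for the RBM47-OE mean and an open diamond for that mean with the GC offset. The NC and RBM47-OE dots are fully apart in 16 pairs, and in 5 pairs the diamond lies on the other side of 0 from the tick.

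A list of 150 genes outside the symbol families, here called partners, joined subunits of the same complexes with other chromatin enzymes. It held 32 higher and 35 lower genes in edgeR, beside 19.1% and 16.9% of all genes, with a median of -0.01. With the GC offset 8 were higher and 24 lower, beside 5.97% and 8.57% of all genes, and the difference from the 101 genes was not tested. By list, 4 of 14 SWI/SNF partners were higher and 4 lower. In the list of 16 ISWI, INO80 and SRCAP partners, which also took in ATRX, 6 were higher and 4 lower. Of 22 partners in NuRD, SIN3, CoREST and NCoR, 3 were higher and 5 lower, and of 12 COMPASS partners 1 was higher and 3 were lower. Of 24 Polycomb partners 7 were higher and 6 lower, of 23 other histone methyltransferases and demethylases 4 and 8, of 32 acetyltransferases and their partners 4 and 4, and of 7 DNA methylation partners 3 and 1. The higher partners with the smallest p-values were ATRX, a heterochromatin remodeler (0.56), BAZ2B, a bromodomain subunit of ISWI complexes (0.66), and TBL1XR1, a subunit of the NCoR complex (0.45). BAZ2B was at 0.550, 0.440 and 0.440 FPKM in NC against 0.720, 0.840 and 0.800 in RBM47-OE and passed also with the GC offset (0.32), which ATRX (0.17) and TBL1XR1 (0.10) did not. The lower ones were SMYD5, a SET and MYND domain protein (-0.44), BCL7C, a SWI/SNF subunit (-0.45), and SUV39H1, which writes H3K9 trimethylation in heterochromatin (-0.50). SUV39H1 was at FPKM values of 7.71, 7.95 and 7.99 in the NC replicates against 5.77, 5.80 and 5.96 in the RBM47-OE replicates, without overlap. All 3 lower partners passed with the GC offset as well, at -0.28, -0.26 and -0.32.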

How the data were processed

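RNA of 3 NC and 3 RBM47-OE libraries was analysed, all grouped by their titles. Reads were trimmed by the authors and mapped to GRCh38 using HISAT2. The deposited counts hold uniquely mapped reads per gene without normalization. FPKM was also deposited by the authors, as fragments scaled by gene length and by mapped fragments. The counting tool, annotation release and use of strand are not given in the sources used here. Depth was 26792409 to 35477983 counts per library, and no interval beyond the spread between libraries was used.

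Counts were tested with edgeR 4.0.16 in R 4.3.3 (filterByExpr with minimum count 10 and minimum total 15, TMM, quasi-likelihood test, condition only), adjusted by Benjamini-Hochberg over 16260 genes. Standard errors are the size of the log2 fold change over the square root of F. FPKM and TMM scales differ slightly, so the sign of a small FPKM difference and of the log2 fold change may differ. The GC offset is a loess curve (span 0.3) per library on exonic GC content from GENCODE 44, matched by gene identifier, used as an offset. Log2 CPM for pair ratios used a prior count of 2. Promoters were taken from RefSeq. edgeR was tested on simulated counts.

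The genes, classes, pairs and partner lists were chosen with earlier results of these data known, and no list was tested as a set. Named were, per class, the called gene with the smallest p-value in each direction, 11 genes whatever their result (SMARCA4, ARID1A, CHD4, KMT2D, EZH2, KDM1A, HDAC1, SIRT1, KAT2A, DNMT1 and DNMT3B), genes at the study's thresholds, the gene of highest FPKM, genes at the count limit, the pairs, and 3 partners in each direction. Other genes were named after their values were seen.

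Alternatives were the replicate number as a block, GC and length offsets, DESeq2 1.42.0 with and without the filter, other scalings (RLE, or library totals), other filters (none, or 10 counts per library as a minimum), limma 3.58.1 on log2(FPKM + 1) and log2(FPKM + 0.1), and each library left out. The canonical GC offset, and the GC offset with each library left out, were chosen after seeing the data. Columns used covered 6 libraries in each table.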

Additional observations from a re-analysis of the deposited data

How the results depend on the processing

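Against 25 higher and 15 lower chromatin genes, 9 and 7 were called with the GC offset, 8 and 6 with the GC offset and replicate block, 10 and 3 with the canonical GC offset, 13 and 32 with the length offset, 16 and 6 with limma on either FPKM scale, and 34 and 9 with library totals. With each library left out, 14 to 35 were higher and 6 to 26 lower. The fewest were called without NC replicate 2 (14 and 6), the most without RBM47-OE replicate 1 (35 and 26), and 15 and 8 were called when NC replicate 3 was dropped, and 15 and 9 when RBM47-OE replicate 2 was. When the GC offset was combined with a library left out, the calls were 4 and 4, 3 and 2, and 6 and 3 for NC replicates 1, 2 and 3, and 7 and 7, 8 and 7, and 7 and 7 for those of RBM47-OE. No chromatin gene called in the fit without an offset was called in the opposite direction under any of these settings. At the study's thresholds 1 gene was higher, in place of 0, with library totals, the GC offset, the length offset, limma on either scale, and without NC replicate 3, RBM47-OE replicate 1 or RBM47-OE replicate 2, a range of 0 to 1 over the libraries left out. The median log2 fold change moved from -0.0098 to 0.053 with library totals, -0.098 with the length offset, 0.045 and 0.059 with limma on log2(FPKM + 1) and log2(FPKM + 0.1), and 0.035 with the canonical GC offset. More genes were higher than lower in 6 of 11 classes, and in 3 with the length offset. Partners called higher were 8 with the GC offset, 7 with the GC offset and replicate block, 10 with the canonical GC offset and 20 to 46 over the libraries left out (20 without NC replicate 2), and partners called lower were 22 with the GC offset and replicate block, 23 with limma on either scale and 19 with the canonical GC offset. At an adjusted p-value under 0.05, shares over all genes are given only without an offset, with the GC offset and with the canonical GC offset. The other counts have no such share beside them and cannot be read as particular to the chromatin genes. With library totals the median log2 fold change over all tested genes was 0.062. The causes of these shifts were not tested.

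With the GC offset 33 of the 101 genes changed sign, among them CHD1, ARID2 and SIRT6, called without it, and with the canonical one 31, among them CHD1, KMT5B and SIRT6. Among the genes whose fold change was recomputed in each setting, those that changed sign in at least 1 were KMT2D (0.026 with the GC offset, 0.027 with the replicate block added and 0.046 canonical), EZH2 (-0.11 with the GC offset with and without the block), DNMT1 (0.011, 0.010 and 0.0095 in the same order as KMT2D), ARID3C (0.031, 0.020 and 0.037), ARID1A (0.013 canonical), KMT2C (-0.23 with the GC offset with and without the block, -0.18 with the length offset and -0.051 canonical), KDM4B (-0.11 with the length offset and -0.016 to 0.073 with a library left out), ARID3A and SETD5. ARID3A, near 0 without an offset, was at 0.0023 and 0.0024 with DESeq2, 0.0023 with RLE factors, 0.0036 with no filter, 0.059 with library totals, 0.056 and 0.067 with limma, 0.19 with each of the 3 GC offsets, and -0.029 to 0.024 with a library left out. SETD5 was at 0.053 with library totals, 0.055 and 0.062 with limma, 0.013 with the canonical GC offset, and -0.038 to 0.0058 with a library left out. Pair shifts that turned with the GC offset were 0.14 for ARID1A and ARID1B, -0.26 for KMT2C and KMT2D, -0.26 for EZH2 and EZH1, -0.30 for KMT5B and KMT5C, and -0.29 for KDM6A and KDM6B.

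Same-numbered NC and RBM47-OE libraries correlated at -0.060, -0.015 and -0.016 in their deviations from the group means, so no deviation shared by replicate number was seen. With 3 libraries per group, these values cannot show whether libraries of the same number were handled together. With the replicate number as a block, 22 chromatin genes were higher and 11 lower, all among the 25 and 15. ARID3C, KDM8 and SIRT4, the 3 genes with the fewest reads (means of 15.2, 50.2 and 83.0), had the largest standard errors, 0.396, 0.243 and 0.199 on the log2 scale.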

Other observations

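Of 15 genes whose symbols share these family names but are not protein-coding, 6 had enough reads to be tested, and SMARCA5-AS1 was the one that passed, picked after its value was seen. This long noncoding RNA (ENSG00000245112, chr4:143513472-143514635, minus strand) starts next to SMARCA5 on the other strand. It was counted at 50, 84 and 46 in the NC and 107, 117 and 72 in the RBM47-OE libraries, and its FPKM was 1.73, 2.22 and 1.46 in NC and 3.04, 3.58 and 2.37 in RBM47-OE. SMARCA5-AS1 changed by 0.65 in log2 terms (standard error 0.214, adjusted p = 0.019 in edgeR) and 0.86 with the GC offset (adjusted p = 0.0073), with exons at 65.0% GC, where most higher genes had exons of low GC content. Use of strand in counting is not given in the sources used here, so reads of SMARCA5 may be counted in it where the genes overlap.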
